A study of Mus musculus with 8 samples.

Results

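H3K4me3, the trimethylation of histone H3 at lysine 4 that marks active promoters, was measured by CUT&Tag at the genes that make, elongate and desaturate fatty acids in mouse lung tumor cells with or without a deletable *Gpx4*. The genes were the 10 members *Acly*, *Acaca*, *Acacb*, *Fasn*, *Scd1*, *Scd2*, *Fads1*, *Fads2*, *Elovl5* and *Elovl6*, and every peak that the deposited peak table assigns to one of these symbols was taken, which gave 20 of the 35486 listed peaks, over 9 of the 10 genes. Of these peaks, 11 lay within 1 kb of an annotated transcription start site and 9 lay farther away. No listed peak carries the symbol *Elovl6*.

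The libraries came from lung tumors of KL mice, which carry Lkb1 fl/fl (replicates 1 and 2), and of KLG4m/m mice, which carry Gpx4 m/m on top of the KL alleles (replicates 3 and 4). Both groups received Ad-Cre by the nose at 8 to 10 weeks of age, tamoxifen every other day for 2 weeks starting 5 weeks later, and 3 weeks of rest, so that tumor cells were taken 10 weeks after Ad-Cre, and all tumor cells therefore share the KL alleles, with *Lkb1* open to deletion by Cre. In the Gpx4 m/m allele, part of *Gpx4* lies between rox sites and Cre switches on the tamoxifen-dependent recombinase DreERT2 from a CAG promoter knocked into the same locus, so the deletion needs both Cre and tamoxifen and the control mice lack the inserted cassette. The cells were sorted as CD45-CD31-EpCAM+. The labels and methods count 3 mice in total whereas the study's legend gives 2 per group. The p-values below rest on the spread between these libraries, which may then be partly technical. edgeR, the main test below, shares information on that spread over all peaks or genes, so a p-value does not reflect its own peak alone.

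Fatty acids are built in the cytosol from citrate. *Acly* encodes ATP citrate lyase, which cuts citrate into acetyl-CoA; *Acaca* and *Acacb* encode the acetyl-CoA carboxylases, which make malonyl-CoA, with the *Acacb* product placed at mitochondria where malonyl-CoA restrains fatty acid oxidation; and *Fasn* encodes the synthase that joins these units into palmitate. *Elovl6* elongates saturated and monounsaturated chains and *Elovl5* polyunsaturated ones, *Scd1* and *Scd2* put a first double bond into saturated chains, and *Fads1* and *Fads2* are the front-end desaturases of polyunsaturated fatty acid synthesis. Polyunsaturated chains in phospholipids are the lipids that peroxidise in ferroptosis, the form of cell death that GPX4 prevents, and monounsaturated chains resist peroxidation. The alveolar type 2 cell, from which such tumors can arise, makes fatty acids for surfactant.

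By edgeR's test the mark differed at 3 of the 20 peaks, and not all in 1 direction. It was higher in KLG4m/m at the *Scd2* promoter, by 27%, and lower at the *Acaca* promoter, where it dropped by 23.4%, and at a peak 6.18 kb upstream of *Elovl5*, where it dropped by 23.1%. The promoters of *Acly*, *Fasn*, *Scd1*, *Fads1*, *Fads2* and *Elovl5* and the 4 peaks of *Acacb* did not pass the test. DESeq2, limma without a trend in the variance and limma after quantile normalization called none of the 20 peaks. Values below are reads and CPM, that is reads scaled to the reads in peaks of their library with TMM factors. The 20 peaks each span 400 bp, which is also the median over all listed peaks. CPM set side by side between peaks thus compare windows of equal length, not the full width of the mark at a gene. Fold changes are log2 of KLG4m/m over KL from edgeR's quasi-likelihood test, and a peak passed at a Benjamini-Hochberg adjusted p under 0.05 over all 35486 peaks. At that threshold 3.10% of all peaks were higher and 5.52% lower, which compares with 1 and 2 of the 20 peaks here, and within 1 kb of a start site 2.89% were higher and 8.43% lower, against 1 and 1 of 11. The median log2 fold change was -0.10 over the 20 peaks (-0.19 to -0.06 when a library was left out) and 0.01 over all peaks.

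The start-site sequences of *Fasn* and *Elovl5* are printed because the listed peak covers the whole stretch in both genes. The annotated start is also the same in the RefSeq promoter table and in the deposited table (equal distance from the start to the far end of the gene). The 2 genes are a synthase whose mark did not pass the test and an elongase whose upstream peak did. Both stretches lie under start-site peaks that did not pass, and the sequence of the upstream *Elovl5* peak is not shown. Each line holds the 200 bases before the start, 5′ to 3′ on the gene's strand, taken from the RefSeq promoter table in build GRCm38.p6, for *Fasn* from chr11:120824548-120824747 on the minus strand and for *Elovl5* from chr9:77917165-77917364 on the plus strand. Capitals mark matches, on either strand, to the motifs searched: CCAAT (the NF-Y box), GGGCGG (the GC box of SP1), CACGTG (an E-box), TCACNCCAC (a sterol regulatory element core) and TATAAA (the TATA box).
Fasn: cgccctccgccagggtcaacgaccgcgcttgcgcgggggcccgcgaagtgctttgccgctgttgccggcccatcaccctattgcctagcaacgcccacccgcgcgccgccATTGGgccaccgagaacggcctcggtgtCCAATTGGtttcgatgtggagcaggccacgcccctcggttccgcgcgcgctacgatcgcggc
Elovl5: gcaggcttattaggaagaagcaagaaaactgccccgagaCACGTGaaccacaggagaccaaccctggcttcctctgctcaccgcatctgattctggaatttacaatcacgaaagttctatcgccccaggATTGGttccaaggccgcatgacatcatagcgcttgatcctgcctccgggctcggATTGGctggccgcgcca

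The *Fasn* stretch held 3 CCAAT matches, at -90 to -86 and -59 to -55 on the minus strand and at -62 to -58 on the plus strand, of which the last 2 overlap in the letters CCAATTGG. The *Elovl5* stretch held 2, at -71 to -67 and -17 to -13, both on the minus strand, and an E-box at -161 to -156. Counted in the same window of all 32851 promoters of the table, CCAAT occurred in 29.3%, GGGCGG in 31%, CACGTG in 5.26%, TCACNCCAC in 0.858% and TATAAA in 9.96%. Base composition differed, with G or C at 70.5% of positions in *Fasn* and 55.0% in *Elovl5*. The promoter table also holds *Acly*, *Acaca*, *Acacb*, *Fads2* and *Elovl6*. For *Acly* and *Fads2* the listed peak lies past the start and covers 2 and 0 of the 200 bases before it, and for *Acaca* and *Acacb* the table gives another start site than the listed peaks have, so their sequences are not shown.

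The positions that follow are those of the deposited table, which differ from the positions of the same genes in GRCm38.p6; its build is not named in the table, and the methods name only Ensembl release 94. The *Acly* peak (chr11:100418428-100418828, over the start of NM_001199296.1) was the strongest of the 20 and stood above 96.4% of all listed peaks. It held 303 and 340 reads in KL and 365 and 303 in KLG4m/m, that is 92.6 ± 7.61 and 99.8 ± 8.51 CPM (SD, n = 2). The KLG4m/m values of 106 and 93.8 CPM overlap the KL values of 87.2 and 97.9, and the log2 fold change was 0.11 (95% confidence interval -0.08 to 0.30, adjusted p = 0.487, edgeR).

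*Acaca*, the cytosolic carboxylase that commits acetyl-CoA to fatty acid synthesis, had 1 listed peak (chr11:84070692-84071092, over the start of the predicted transcript XM_030245462.2). The reads were 224 and 242 in KL and 168 and 175 in KLG4m/m, or 64.4 and 69.7 CPM against 48.7 and 54.2 CPM. The lowest KL library stood above the highest KLG4m/m library, with group levels of 67.1 ± 3.72 and 51.5 ± 3.86 CPM (SD, n = 2). The log2 fold change was -0.38 (SE 0.109, adjusted p = 0.0276, edgeR). Of the 8 alternatives that kept all libraries 5 passed. These were edgeR's test with other scalings or a filter, and limma with a trend in the variance, which was chosen after seeing the data. DESeq2, limma without that trend and limma after quantile normalization did not pass. The adjusted p ran from 0.0117 (edgeR with the filter at 10 CPM) to 0.448 (DESeq2). Leaving out KL replicate 1 kept the call (adjusted p = 0.0393, edgeR) and leaving out KL replicate 2 ended it (log2 fold change -0.33, adjusted p = 0.199, edgeR).

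*Acacb*, the mitochondrial carboxylase, had 4 listed peaks at 3 start sites and none passed edgeR's test; none of the 4 had an unadjusted p under 0.05 either. The peak over the middle start (chr5:114313767-114314167, XM_006530114.5) carried most of the signal, with 42.0 and 51.3 CPM in KL and 39.4 and 47.1 CPM in KLG4m/m, which overlap (log2 fold change -0.11, 95% confidence interval -0.38 to 0.16). The peak over the last start (chr5:114337462-114337862, NM_001403528.1) held 46 to 62 reads in every library. At the first start (XM_006530112.4) the peak over the start (chr5:114293326-114293726) and the one 1.565 kb upstream (chr5:114291551-114291951) were weak, with 10 to 30 reads per library, and had log2 fold changes of -0.58 and -0.56 with confidence intervals that span 0 (-1.22 to 0.07 and -1.33 to 0.21). At both, each KL library lay above each KLG4m/m library.

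*Fasn* had a start-site peak (chr11:120715175-120715575, NM_007988.3) that stood above 89.2% of all peaks, where 246 and 277 KL reads stood against 251 and 223 KLG4m/m reads. In CPM the libraries ran 70.8 and 79.8 in KL and 72.8 and 69.0 in KLG4m/m, and the groups overlap. The log2 fold change was -0.08 (95% confidence interval -0.29 to 0.12, adjusted p = 0.643, edgeR), and it was 0.00400 without KL replicate 2. The other peak assigned to *Fasn* (chr11:120741634-120742034), 25.6 kb upstream of another annotated start, lies by the table in an intron of *Ccdc57* and held 14 to 17 reads per library.

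**Figure D1:**
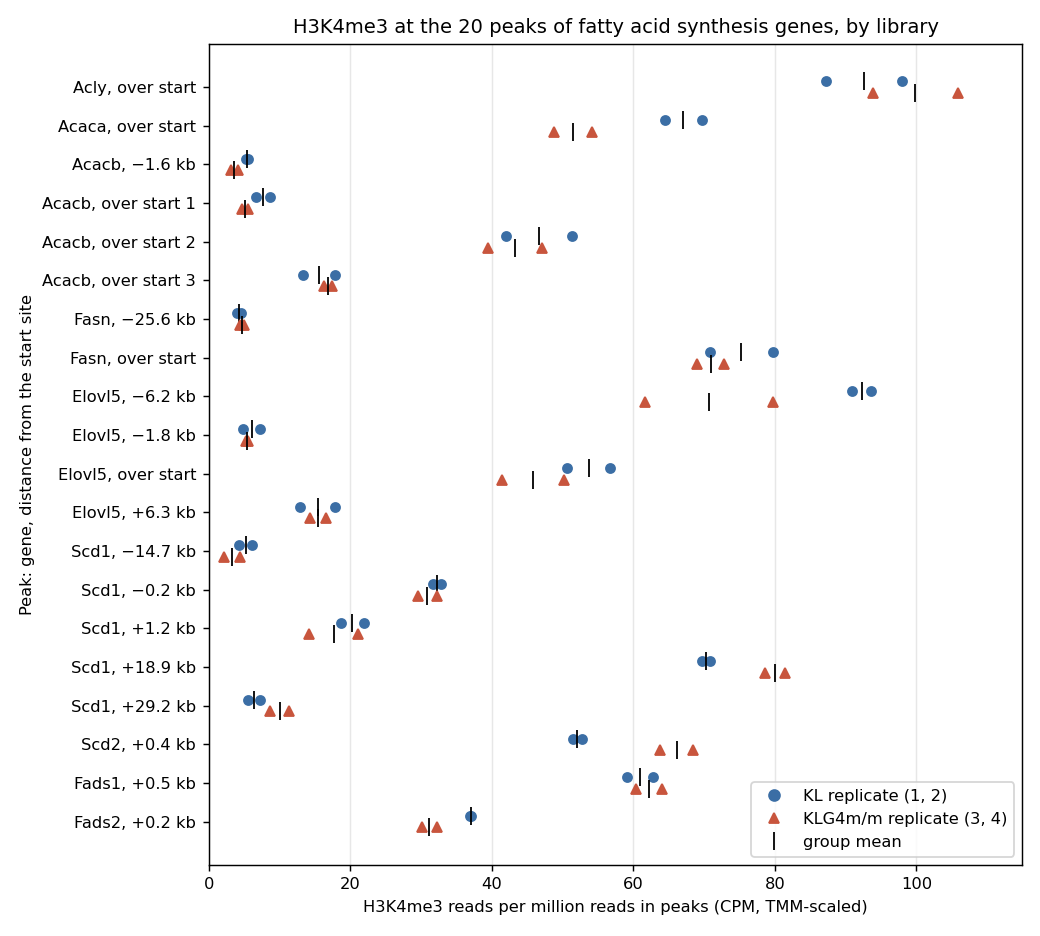
H3K4me3 in CPM (horizontal axis) at each of the 20 peaks (vertical axis, by gene and distance from the start site, with start 1 to 3 for the 3 *Acacb* starts in genome order); circles are the 2 KL libraries, triangles the 2 KLG4m/m libraries and vertical ticks the group means. The groups stand apart at 9 of the 20 peaks, against 54.2% of all listed peaks. Among the 9 are *Acaca*, the *Elovl5* peak 6.18 kb upstream and *Scd2*, while the groups overlap at *Acly*, *Fasn* and *Fads1*.

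*Elovl5*, the elongase of polyunsaturated chains, had 4 peaks under its own name, and the strongest was not at the start site. The peak 6.18 kb upstream of NM_134255.3 (chr9:77818067-77818467, listed as distal intergenic) held 316 and 325 reads in KL and 275 and 199 in KLG4m/m, or 90.9 and 93.6 CPM against 79.8 and 61.6 CPM. The KL libraries lay close together and above both KLG4m/m libraries, which lay far apart, with group levels of 92.3 ± 1.91 and 70.7 ± 12.8 CPM (SD, n = 2). The log2 fold change was -0.38 (SE 0.104, adjusted p = 0.0225, edgeR). The size rested on the KLG4m/m libraries, being -0.21 without replicate 4 and -0.59 without replicate 3. Without KL replicate 2 it was -0.36, and the call was not kept. Of the 8 alternatives with all libraries 5 passed, with adjusted p between 0.00756 and 0.360.

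At the *Elovl5* start itself (chr9:77824402-77824802), where the sequence above lies, the libraries ran 50.6 and 56.7 CPM in KL and 41.5 and 50.2 CPM in KLG4m/m. Every KL library lay above every KLG4m/m library by a small margin, and the log2 fold change of -0.23 did not pass (95% confidence interval -0.49 to 0.02, adjusted p = 0.248, edgeR). It was -0.10 without KLG4m/m replicate 3, -0.37 without replicate 4 and -0.15 without KL replicate 2. Whether the upstream peak changed more than the start-site peak was not tested. The peak in intron 1, 6275 bp past an annotated start (chr9:77831223-77831623) had 15.4 ± 3.47 CPM in KL and 15.4 ± 1.62 in KLG4m/m (SD, n = 2), and the one 1.76 kb upstream of an internal start (chr9:77846418-77846818) had 17 to 25 reads per library. A further 4 weak peaks inside *Elovl5* are assigned to the predicted gene *Gm34771*, and none passed, with 0 at an unadjusted p under 0.05 by edgeR, by limma with a variance trend and by DESeq2.

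*Elovl6*, the elongase that takes palmitate to stearate, had no peak under its own name. By the table's annotation 5 peaks lie in *Elovl6* introns 2 and 3 but are assigned to the predicted gene *Gm35986*, as is the peak 0.229 kb upstream of the start of that gene (chr3:129326266-129326666), and these 6 are described here without being counted as members. The peak at that start held 127 and 167 reads in KL and 141 and 134 in KLG4m/m (log2 fold change -0.04, 95% confidence interval -0.32 to 0.24). It lies beside the peak in *Elovl6* intron 2 at chr3:129329826-129330226, and whether it also marks the start of *Elovl6* was not tested. The missing symbol therefore does not show that *Elovl6* lacks the mark. Summed over the 6, the level was 95.1 ± 6.41 CPM in KL and 98.8 ± 2.82 CPM in KLG4m/m (SD, n = 2; adjusted p = 0.725, edgeR). None of the 6 passed by edgeR, by limma with a variance trend or by DESeq2, and at an unadjusted p under 0.05 the counts were 1, 1 and 0, the 1 being the peak in intron 3 (chr3:129406657-129407057; log2 fold change 0.50, adjusted p = 0.128, edgeR).

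*Scd2*, a stearoyl-CoA desaturase, was the member with the higher mark in KLG4m/m. Its 1 listed peak (chr19:44282478-44282878, 363 bp past the start of NM_009128.2) held 179 and 183 reads in KL and 236 and 206 in KLG4m/m, or 51.5 and 52.7 CPM against 68.4 and 63.8 CPM. The groups do not overlap, at 52.1 ± 0.861 and 66.1 ± 3.29 CPM (SD, n = 2), and the log2 fold change was 0.34 (SE 0.107, adjusted p = 0.0438, edgeR). The call lay close to the threshold. Of the 8 alternatives with all libraries 3 passed, each of them edgeR's test with another scaling or filter. Scaling by total reads, limma with a variance trend and DESeq2 were among those that ended it. The adjusted p ran from 0.0426 (edgeR with the filter at 10 CPM) to 0.552 (DESeq2). Without each of the 4 libraries in turn the log2 fold change stayed between 0.29 and 0.40, but the call was not kept in these fits.

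*Scd1*, the neighbouring stearoyl-CoA desaturase, had 5 peaks, and again the strongest was not at the start. The peak 201 bp upstream of the start of NM_009127.4 (chr19:44396349-44396749) held 110 and 114 reads in KL and 102 and 104 in KLG4m/m, or 32.2 ± 0.843 and 30.9 ± 1.85 CPM (SD, n = 2), with overlapping groups in CPM and a log2 fold change of -0.06 (95% confidence interval -0.36 to 0.23). A peak 18875 bp past the start (chr19:44376873-44377273, distal intergenic) had more than this, with 70.8 and 69.7 CPM in KL and 78.6 and 81.4 CPM in KLG4m/m. Both KLG4m/m libraries were above both KL libraries, but the log2 fold change of 0.19 did not pass (95% confidence interval -0.01 to 0.38, adjusted p = 0.227, edgeR). The peak 29193 bp past the start (chr19:44366555-44366955) was weak, at 19 and 25 KL reads against 39 and 28 KLG4m/m reads, and its log2 fold change of 0.66 had an unadjusted p under 0.05 and an adjusted p of 0.144 (edgeR). The peaks 1250 bp past the start (chr19:44394498-44394898) and 14.7 kb upstream (chr19:44410881-44411281) had log2 fold changes of -0.21 and -0.65 with overlapping groups, the latter on 7 to 21 reads per library and running from -0.25 without KLG4m/m replicate 4 to -1.25 without replicate 3.

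**Figure D2:**
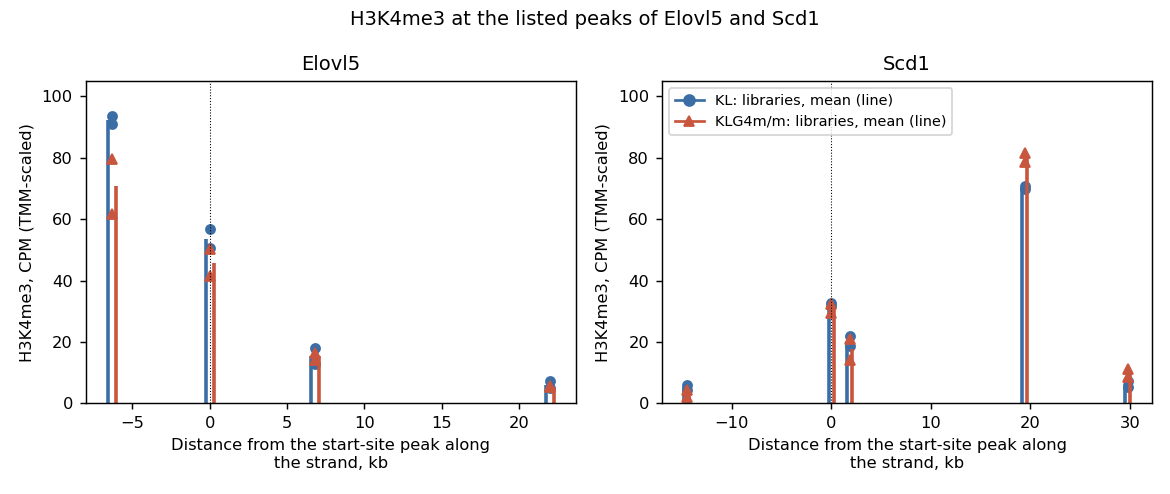
H3K4me3 in CPM (vertical axis) at the listed peaks of *Elovl5* (left) and *Scd1* (right) by the distance in kb between peak centres, along the strand, from the peak at the start site (horizontal axis, dotted line at 0); points are libraries and vertical lines reach to the group means. In both genes a peak away from the start is the highest, at 92.3 and 70.7 CPM in KL and KLG4m/m upstream of *Elovl5* and at 70.2 and 80.0 CPM past *Scd1*.

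The front-end desaturases each had 1 peak near the start and neither passed. *Fads1* (chr19:10160772-10161172, 520 bp past the start of NM_146094.2) held 218 and 205 reads in KL and 221 and 195 in KLG4m/m, at 60.9 ± 2.59 and 62.2 ± 2.63 CPM (SD, n = 2), with overlapping groups and a log2 fold change of 0.03 (95% confidence interval -0.18 to 0.25). *Fads2* (chr19:10078307-10078707, 160 bp past the start of NM_019699.2) held 129 and 128 reads in KL and 104 in each KLG4m/m library. The *Fads2* groups do not overlap, at 37.0 ± 0.171 and 31.2 ± 1.44 CPM (SD, n = 2), and the log2 fold change of -0.25 did not pass (95% confidence interval -0.53 to 0.04, adjusted p = 0.276, edgeR). Their neighbour *Fads3* had a log2 fold change of -0.14 (adjusted p = 0.576, edgeR), and *Scd3* and *Scd4*, which neighbour *Scd1* and *Scd2*, had no listed peak.

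Over the 20 peaks the KL and KLG4m/m libraries did not overlap at 9, of which 3 were higher and 6 lower in KLG4m/m, against 54.2% of all listed peaks that did not overlap. Of the listed peaks within 100 kb of the 3 that passed, 1 lay near the *Acaca* peak, 9 near the *Elovl5* peak and 7 near the *Scd2* peak, and none of these passed by edgeR, limma with a variance trend or DESeq2, where over all peaks 3.10% were higher and 5.52% lower by edgeR. At an unadjusted p under 0.05 edgeR counted 1 of them, the *Scd1* peak 29193 bp past its start, limma with a variance trend counted 1 and DESeq2 counted 0.

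When the reads of all listed peaks of a gene were summed and tested over 20871 genes, the same 3 genes passed; without KL replicate 2 none of the 9 did by edgeR, with 3 at an unadjusted p under 0.05. *Acaca* had a log2 fold change of -0.39 (adjusted p = 0.00991), *Scd2* of 0.34 (adjusted p = 0.0246) and *Elovl5* of -0.29 (SE 0.0728, adjusted p = 0.00256, edgeR). *Elovl5* summed to 162 and 173 CPM in KL and 144 and 131 CPM in KLG4m/m, without overlap, and with the peak nearest a start site alone the log2 fold change was -0.23 and did not pass (adjusted p = 0.230, edgeR). *Acacb*, *Acly*, *Fasn*, *Scd1*, *Fads1* and *Fads2* did not pass, with log2 fold changes from -0.25 for *Fads2* to 0.11 for *Acly*. *Scd1* summed to a log2 fold change of 0.07, which is not significant (95% confidence interval -0.07 to 0.22) and was -0.06 when only the peak nearest the start was used. At this threshold 5.38% of all genes were higher and 9.63% lower, against 1 and 2 of 9 here, and the median log2 fold change was -0.08 over the 9 genes and 0.00 over all genes. DESeq2 called none of the 9 genes and none of the 20 peaks, with 3 genes and 2 peaks at an unadjusted p under 0.05, and it called 277 peaks of the whole table where edgeR called 3059.

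**Figure D3:**
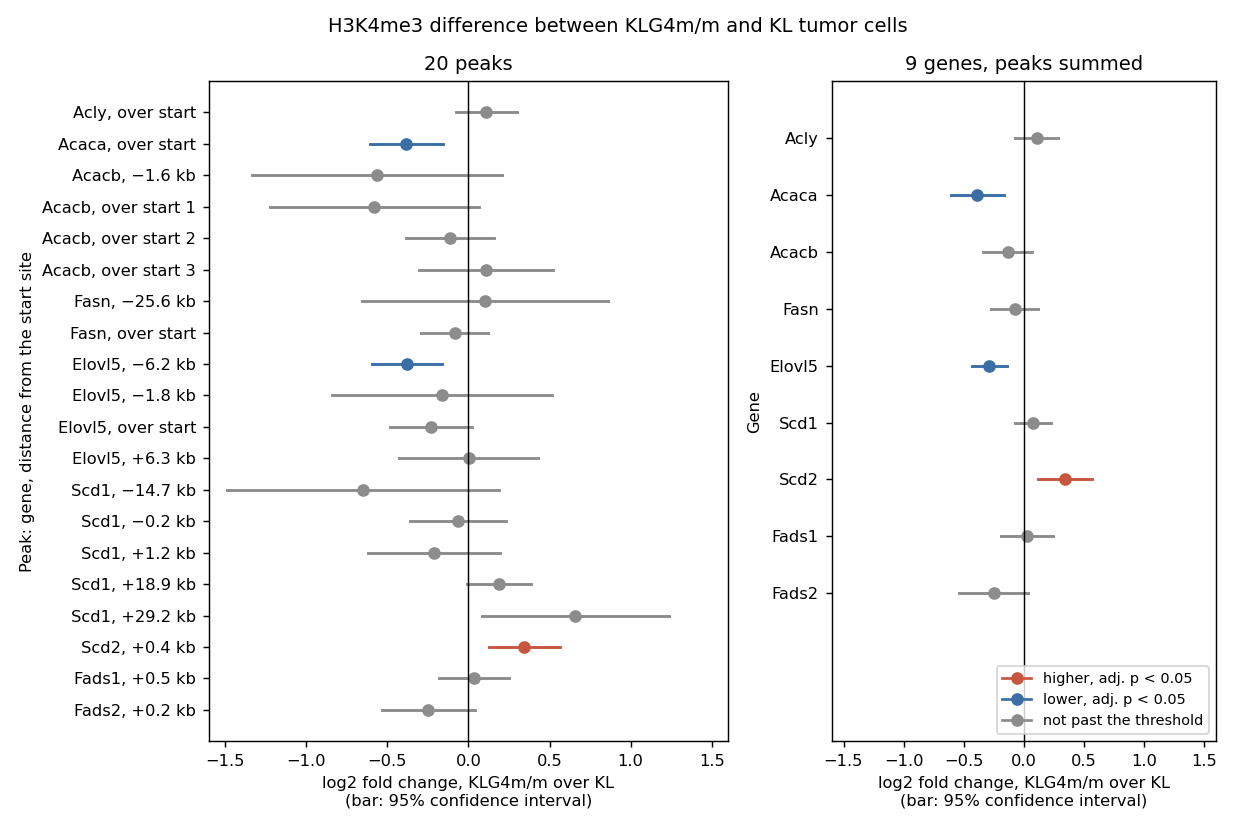
Log2 fold change of H3K4me3, KLG4m/m over KL (horizontal axes), for the 20 peaks (left) and for the 9 genes with their peaks summed (right); points are edgeR estimates, bars 95% confidence intervals, and colour marks an adjusted p under 0.05. In the right panel *Scd2* lies to the right of 0, *Acaca* and *Elovl5* to the left, and the intervals of the other genes span 0; in the left panel the *Scd1* peak 29.2 kb past the start, not past the threshold, also has an interval clear of 0 (0.08 to 1.24).

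The wider pathway was taken from a list of 34 other genes, of which 31 had a listed peak; *Olah*, *Scd3* and *Scd4* had none. At gene level 2 of the 31 were higher and 5 lower in KLG4m/m, where over all genes 5.38% were higher and 9.63% lower, with a median log2 fold change of -0.01; without KL replicate 2, *Hacd1* alone of these 7 passed. None of the 2 genes of substrate supply or of the 4 of NADPH supply passed by edgeR, limma with a variance trend or DESeq2, with 2, 2 and 0 of the 6 at an unadjusted p under 0.05. *Acss2*, which makes acetyl-CoA from acetate, was closest, with 80.2 and 76.0 CPM in KL and 94.4 and 91.6 CPM in KLG4m/m (log2 fold change 0.25, adjusted p = 0.0517, edgeR), and it passed with RLE scaling (adjusted p = 0.0490) and with the filter at 10 CPM (adjusted p = 0.0491, both edgeR). *Pgd*, of the pentose phosphate pathway, had a log2 fold change of 0.21 (adjusted p = 0.0546, edgeR).

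Among the genes that serve the carboxylases, *Hlcs*, which attaches biotin to them, was lower, at 432 and 504 KL reads against 384 and 360 KLG4m/m reads (log2 fold change -0.28, adjusted p = 0.0102, edgeR; -0.15 without KL replicate 2). Its 3 peaks moved unequally in size, at log2 fold changes of -0.44, -0.72 and -0.02, and only the peak at -0.72 passed. In mitochondrial fatty acid synthesis 1 of 6 genes passed: *Ndufab1*, the mitochondrial acyl carrier protein, was lower (log2 fold change -0.35, adjusted p = 0.0127, edgeR; -0.20 without KLG4m/m replicate 4 and -0.52 without replicate 3).

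Of 11 elongation genes 1 was higher and 3 were lower; whether this differs from the other steps was not tested, and DESeq2 called none of the 31 genes, with 7 at an unadjusted p under 0.05. *Elovl4*, the elongase of very long chains, was higher, at 75 and 65 KL reads against 110 and 95 KLG4m/m reads (log2 fold change 0.60, adjusted p = 0.00647, edgeR). *Elovl2*, the elongase that acts after *Elovl5* on long polyunsaturated chains, was lower on few reads, with 28 and 55 in KL and 17 and 18 in KLG4m/m (log2 fold change -1.19, adjusted p = 0.00233, edgeR), and the difference was -0.61 without KL replicate 2. *Hacd1*, a dehydratase of the elongation cycle, was lower, with 194 and 186 reads against 141 and 120 (log2 fold change -0.49, adjusted p = 0.00333, edgeR). *Hsd17b12*, the ketoacyl reductase of the same cycle, was represented only by a weak intronic peak 12695 bp past the start, with 21 and 23 reads against 10 and 6 (log2 fold change -1.39, adjusted p = 0.0129, edgeR). Of the genes that serve the desaturases, *Cyb5r3*, the reductase that feeds electrons to cytochrome b5, was higher, at 436 and 401 KL reads against 476 and 491 KLG4m/m reads (log2 fold change 0.26, adjusted p = 0.0109, edgeR), and the cytochrome b5 genes *Cyb5a* and *Cyb5b* had log2 fold changes of 0.07 and -0.04.

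**Figure D4:**
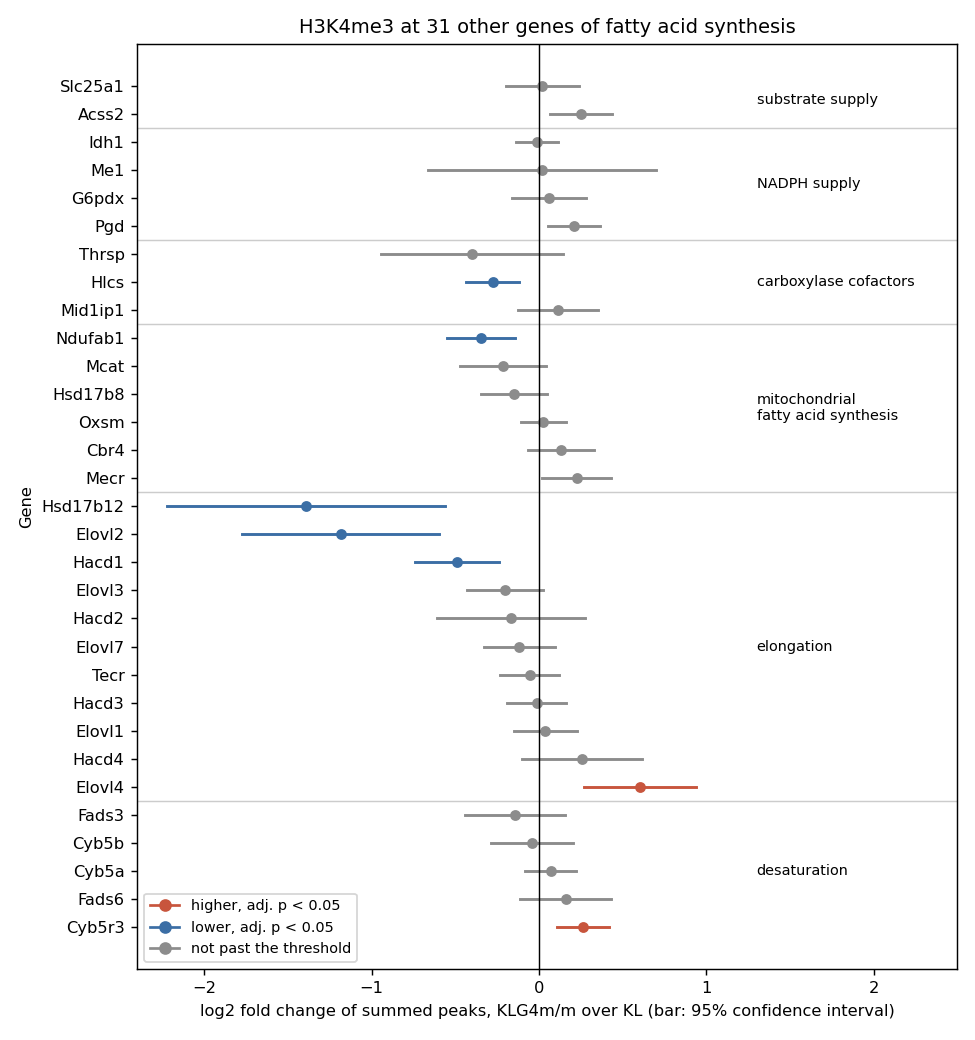
Log2 fold change of H3K4me3 with peaks summed per gene, KLG4m/m over KL (horizontal axis), for the 31 other pathway genes with a listed peak (vertical axis, grouped by step); points are edgeR estimates, bars 95% confidence intervals, and colour marks an adjusted p under 0.05. *Elovl4* and *Cyb5r3* lie to the right of 0, and *Hlcs*, *Ndufab1*, *Elovl2*, *Hacd1* and *Hsd17b12* to the left.

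The libraries held 3244495 to 3463731 reads in peaks, with TMM factors from 0.995 to 1.00, and no library stood apart. *Gpx4* itself had 1 listed peak, over its start and outside the rox-flanked exons, so that it does not check the deletion; it held 242 and 236 reads in KL and 304 and 301 in KLG4m/m (log2 fold change 0.39 at gene level, adjusted p = 0.00178, edgeR). Fewer cells that carry the mark and less mark per cell cannot be told apart in these bulk libraries. The summed levels of the epithelial, alveolar type 2, adipocyte and lymphocyte marker lists did not overlap between the groups. Those of the macrophage, endothelial and fibroblast lists overlapped. Groups without overlap were common, at 54.2% of all listed peaks, and the share among summed lists was not computed. The part of these lists in the results above was not tested, and over all genes 5.38% were higher and 9.63% lower. Of 6 epithelial genes 5 had a peak and *Epcam* and *Cdh1* were lower, with log2 fold changes of -0.82 and -0.38. *Krt8* (-0.28), *Krt18* (0.07) and *Cldn7* (0.06) did not pass, and *Krt7* had no peak. The summed epithelial level was 253 to 261 CPM in KL and 213 in both KLG4m/m libraries. Of 6 alveolar type 2 genes 4 had a peak and *Sftpb*, *Sftpa1* and *Lamp3* were lower (181 to 193 CPM in KL, 129 to 139 in KLG4m/m), while the defining *Sftpc* had no peak. Of 6 adipocyte genes 3 had a peak, none passed by edgeR or DESeq2, with 0 at an unadjusted p under 0.05 by either, and *Plin1*, *Cidec* and *Lep* had none (31.7 to 33.1 CPM in KL, 41.9 to 42.7 in KLG4m/m). Of 5 lymphocyte genes 4 had a peak and *Ms4a1* was higher (104 to 111 CPM in KL, 119 to 122 in KLG4m/m), and *Cd79a* had none. Of 6 genes each, macrophage markers had 5 with a peak (*Adgre1* higher, *Lyz2* lower; 193 to 204 and 199 to 210 CPM), endothelial markers 6 (*Tek* lower; 191 to 220 and 192 to 206 CPM) and fibroblast markers 3 (*Pdgfrb* higher; 64.6 to 71.7 and 69.5 to 72.8 CPM).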

How the data were processed

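H3K4me3 CUT&Tag, here with protein A/G-MNase, was analysed in 4 of the 8 samples; the 4 H3K27ac libraries are not analysed here. The authors ran FastQC, trimmed the reads (Trim Galore 0.6.10), mapped them (BWA 0.7.15), removed mitochondrial, low-quality and duplicate reads (Picard 2.17.3), called peaks with MACS2 2.2.7.1 and assigned genes with HOMER 4.11.1. The authors deposited read counts, without normalization, and CPM per peak and library; the deposited CPM are these counts scaled to the reads in peaks of each library, so a change by 1 factor at every peak is not visible. The methods assign a gene to peaks in its body or promoter region, whereas the deposited table also assigns distal intergenic peaks, as at *Elovl5* and *Scd1*. The table's distance to the start site runs from the nearest peak edge. Its columns of the authors' own comparison (fold change, p-value and the like) were not used.

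The counts were tested with edgeR 4.0.16 in R 4.3.3 (quasi-likelihood, two-sided, TMM, no filter, no covariate; threshold 0.05) over 35486 peaks, or 20871 genes with peaks summed, and the test was checked on simulated data. Alternatives used DESeq2 1.42.0, limma 3.58.1 and other scalings and filters. Libraries of a group agreed nearly within sampling noise (chi-square per degree of freedom 1.13 in KL and 1.23 in KLG4m/m). With 2 libraries a group, an exact permutation test over the 3 splits cannot reach the threshold and none was run.

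Every member peak is named; other pathway genes are named where they passed, with *Fads3*, *Scd3* and *Scd4*, while *Acss2*, *Pgd*, *Cyb5a*, *Cyb5b* and the *Gm35986* and *Gm34771* peaks were added after their values were seen. An allele of both groups and a lymphocyte marker are not reported here. The members and gene lists were chosen with earlier results of these data known.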

Additional observations from a re-analysis of the deposited data

How the results depend on the processing

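No paired analysis was possible because the KL libraries are numbered 1 and 2 and the KLG4m/m libraries 3 and 4, so the groups share no replicate number. The 3 member peaks, 3 member genes and 7 other pathway genes past the threshold became 0, 0 and 0 with DESeq2, with limma on log2(CPM + 1) and with quantile normalization and limma. Those limma fits called 0 peaks of the whole table, with 7330 and 7193 at an unadjusted p under 0.05, and 4 member peaks and 3 member genes in each; with a trend in the variance, an alternative chosen after seeing the data, limma called 2885 peaks of the table, 2 member peaks (*Acaca* and *Elovl5*) and 3 member genes. Leaving out each library in turn gave 0 to 2 member peaks, 0 to 2 member genes and 0 to 6 other pathway genes; without either KLG4m/m library 0 peaks of the whole table passed edgeR's test (5486 and 5178 at an unadjusted p under 0.05), so these losses say nothing about single genes. The 3 peaks and 3 genes passed with RLE scaling, TMM from promoter peaks and a mean of at least 10 CPM, which tested 14 of the 20 peaks; total reads without TMM left 2 peaks and 3 genes, and the peak nearest a start site left 2 genes.

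No value past the threshold changed sign. The *Elovl5* intron 1 peak, 0.00 as reported, was -0.00257 with DESeq2, -0.000531 with RLE, -0.00721 with total reads and -0.0181 with the filter. *Scd1* summed was -0.00287 with quantile normalization and -0.0610 with the nearest peak. The median of the other pathway genes was 0.0168 with the filter and 0.0201 with the nearest peak, and ran from -0.0438 to 0.0174 when a library was left out. Without single libraries the *Elovl5* peak 1.76 kb upstream of the internal start ran from -0.41 to 0.14, the intron 1 peak from -0.21 to 0.25, the *Acacb* peaks at the middle and last starts from -0.248 to 0.0391 and from -0.0883 to 0.339, the *Fads1* peak from -0.0156 to 0.0768 and gene from -0.0189 to 0.0803, the *Fasn* peak from -0.169 to 0.00400 and gene from -0.155 to 0.0204, and the *Scd1* peak 1250 bp past the start from -0.511 to 0.0494. No scaling moved the median of all peaks by over 0.1. Member peaks with 7 to 30 reads per library have wide intervals, and no difference passed there at this depth.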
